A study of Mus musculus with 6 samples.

Results

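The mitochondrial carriers of the SLC25 family were examined in the quadriceps of NOD-SCID mice, which lack working T and B cells, 22 days after subcutaneous transplantation of human renal cancer cells. One group carried RXF393 cells, labelled as cachectic, and the other SKRC39 cells, labelled as not cachectic, so every animal bore a tumour. Age and sex are not in the labels used here, and each group stands for 1 tumour cell line. Members are the genes whose symbol in the platform annotation starts with Slc25a, without Slc25a20, and the brightest probe on average across the 6 Illumina arrays stands for each gene. This gave 45 of the 19057 named genes on the array. Of the 45, 34 were tested, because their probe was detected (detection p below 0.05) on at least 2 arrays. The other 11 were Slc25a2, Slc25a13, Slc25a18, Slc25a21, Slc25a30, Slc25a31, Slc25a40, Slc25a43, Slc25a48, Slc25a51 and Slc25a54, and 10 of them had no probe detected on any array. Slc25a18 was detected on the array titled SKR_3 alone.

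SLC25 carriers are small membrane proteins that move metabolites, nucleotides, cofactors and ions across the inner mitochondrial membrane. They supply respiration with ADP, phosphate and substrates, return ATP to the cytosol, and link the cytosolic and mitochondrial parts of amino acid, haem and nucleotide metabolism. In muscle the exchange of ADP for ATP and the malate-aspartate shuttle, which carries reducing equivalents from glycolysis into mitochondria, are the carriers' best known tasks. Outside the family, the outer membrane channels pass the same metabolites, and the TIM22 route inserts newly made carriers into the inner membrane.

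Labels agree on the tumour line for 4 arrays, and these were compared. They are replicates 1 and 2 of SKRC39 and replicates 2 and 3 of RXF393 by the number in the title, and values are given in this order throughout. The characteristics give SKRC39 for the array titled RXF_1 and RXF393 for that titled SKR_3, so both are shown apart. The design text is read here as 1 mouse per array, so that p-values measure the spread between mice on that reading. On the 6 arrays 30.3% to 37.7% of all probes were detected, with 37.7% and 33.7% for SKRC39 and 33.7% and 30.9% for RXF393. The lowest log2 intensity that counted as detected was 5.43 and 5.65 with SKRC39 and 5.65 and 5.87 with RXF393. A dim probe could thus be detected on 1 array and undetected on another at the same value. Of the 11 muscle fibre markers on the platform, 9 were detected on every array. Myh7, the slow myosin gene, was detected on 2 arrays and Tnni1, the slow troponin I gene, on 5. In bulk muscle, fewer cells of a type and less RNA per cell cannot be told apart. Values are log2 intensities after background correction and quantile scaling. Changes are RXF393 minus SKRC39 with the standard error (SE, n = 2 per group), and limma's p-values were adjusted over every tested probe by the Benjamini-Hochberg method.

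No SLC25 carrier passed the threshold of 0.05. The lowest adjusted p was 0.18, while 36 of 10181 genes (0.354%) passed, 0.196% higher and 0.157% lower with RXF393. At an unadjusted p below 0.05 there were 5 carriers higher and 6 lower with RXF393, beside 8.11% and 6.70% of all genes. Together these were 32.4% of the tested carriers, beside 14.8% of all genes. Among the 23 carriers detected on all 6 arrays 5 were higher and 2 lower at that level, 7 together, beside 1331 of the 7246 genes so detected. Their median change was 0.10, beside 0.16 over those genes. The 6 lower ones among the 34 were Slc25a11, Slc25a12, Slc25a10, Slc25a15, Slc25a41 and Slc25a35. They serve the malate-aspartate shuttle, dicarboxylate, ornithine and ATP-Mg/phosphate transport and, for Slc25a35, a less well known substrate. Slc25a10, Slc25a41 and Slc25a35 were detected on neither RXF393 array, so they entered the test through other arrays, and Slc25a15 was detected on 1. The higher ones were Slc25a5, Slc25a25, Slc25a33, Slc25a37 and Slc25a38, which carry adenine nucleotides, pyrimidine nucleotides, iron and glycine. Both RXF393 arrays lay above both SKRC39 arrays in 9 of the 34 carriers, against 28.1% of all genes, and below them in 12, against 20.6%. The groups thus did not overlap in 61.8% of the tested carriers, beside 48.8% of all genes. Changes were positive in 15 carriers (44.1%, beside 53.6%) and negative in 19 (55.9%, beside 46.4%), and 16 (47.1%, beside 27.9%) reached an absolute change of 1. The median change of the tested carriers was -0.12, beside 0.07 over all genes tested. Their median absolute change was 0.87, beside 0.59. A carrier detected only where it was bright could enter the test, and 5 of the 34 were detected on neither RXF393 array, so these counts do not describe all members.

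**Figure D1:**
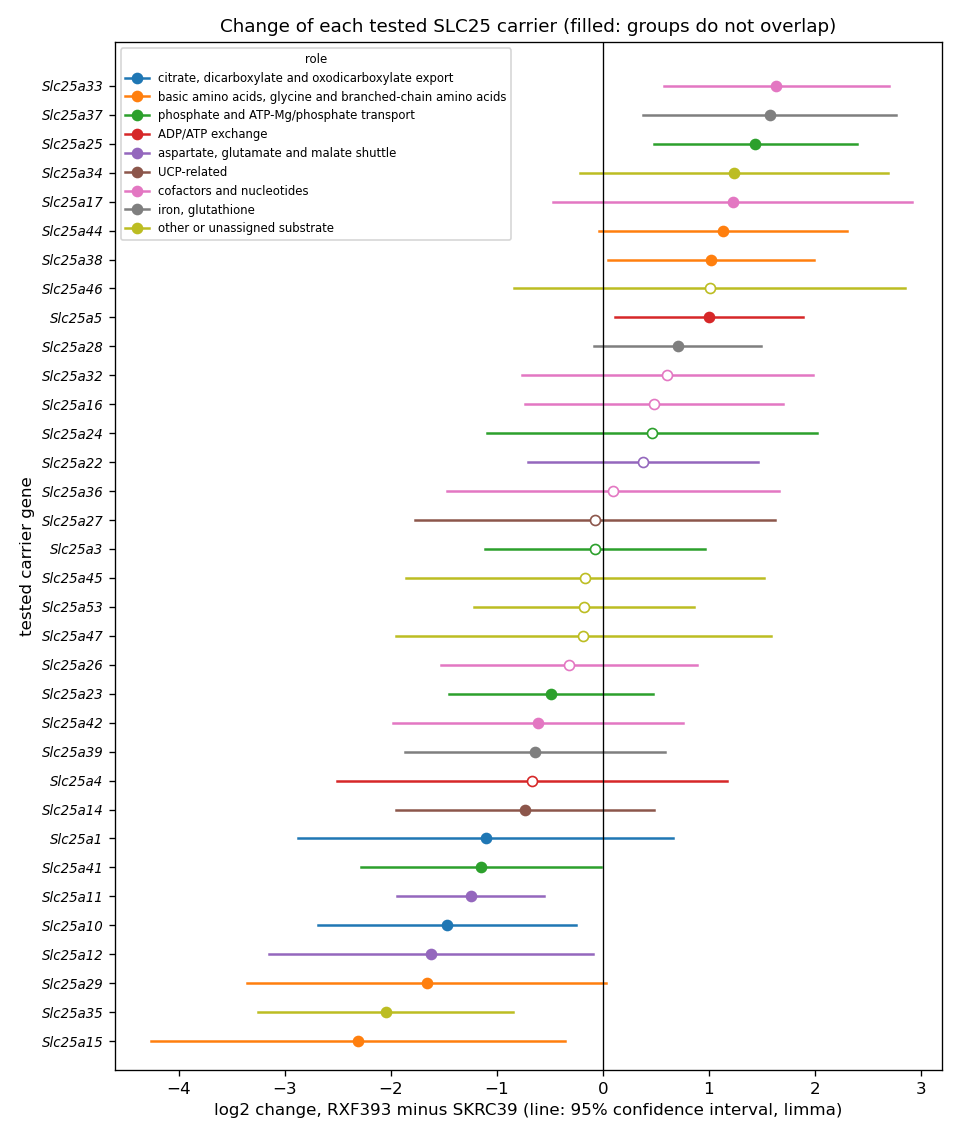
The log2 change (RXF393 minus SKRC39, horizontal axis) of each of the 34 tested carriers (vertical axis) is drawn with its 95% confidence interval from limma, coloured by role, with filled points where the 2 arrays of each line do not overlap. Measured changes run from -2.31 (Slc25a15, undetected on 1 RXF393 array) to 1.64 (Slc25a33), and the carriers of the malate-aspartate shuttle Slc25a11 and Slc25a12 lie on the negative side.

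The promoters of 35 members are in the RefSeq promoter table (GRCm38.p6; 250 bases before to 50 after each annotated start), with 45 starts in all. The starts of 1 carrier that was lower and 3 that were higher with RXF393 are shown, so that the bases around carriers of opposite direction can be set side by side. Capitals mark matches on either strand to one of the motifs searched, which were TCAAGGTCA (oestrogen-related receptor), CCGGAAG (ETS factors), GCGCATGCG (NRF-1), TAAACA (FoxO), TGACGTCA (cAMP response element) and AGAACA (glucocorticoid receptor half-site). No searched motif overlaps another in the sequences shown.
Slc25a11, chr11:70646990-70647289, minus strand: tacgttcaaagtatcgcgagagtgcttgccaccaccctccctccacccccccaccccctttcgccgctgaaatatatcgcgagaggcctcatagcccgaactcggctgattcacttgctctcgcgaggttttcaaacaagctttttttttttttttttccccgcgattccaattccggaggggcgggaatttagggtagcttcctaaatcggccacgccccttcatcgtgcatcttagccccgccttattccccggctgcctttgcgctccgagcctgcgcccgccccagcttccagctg
Slc25a33, chr4:149774218-149774517, minus strand: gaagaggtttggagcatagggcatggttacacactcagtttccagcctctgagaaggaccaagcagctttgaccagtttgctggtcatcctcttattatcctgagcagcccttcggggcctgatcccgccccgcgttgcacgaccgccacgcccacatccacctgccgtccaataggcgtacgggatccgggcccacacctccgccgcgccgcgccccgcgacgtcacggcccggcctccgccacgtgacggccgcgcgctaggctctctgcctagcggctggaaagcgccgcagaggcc
Slc25a25, chr2:32424017-32424316, minus strand: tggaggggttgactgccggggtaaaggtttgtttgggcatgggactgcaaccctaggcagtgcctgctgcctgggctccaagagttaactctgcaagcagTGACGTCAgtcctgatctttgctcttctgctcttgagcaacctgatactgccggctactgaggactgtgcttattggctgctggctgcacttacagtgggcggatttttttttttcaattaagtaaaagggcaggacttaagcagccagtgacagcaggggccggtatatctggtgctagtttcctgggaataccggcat
Slc25a38, chr9:120110132-120110431, plus strand: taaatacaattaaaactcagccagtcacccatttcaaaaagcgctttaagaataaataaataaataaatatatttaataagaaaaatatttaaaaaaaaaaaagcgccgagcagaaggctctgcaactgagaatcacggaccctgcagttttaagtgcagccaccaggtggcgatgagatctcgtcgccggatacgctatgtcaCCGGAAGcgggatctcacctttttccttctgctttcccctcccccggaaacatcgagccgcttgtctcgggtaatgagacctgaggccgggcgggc
The Slc25a25 start shown was chosen among the gene's 3 because it holds the palindrome TGACGTCA with its first base at -150 from the start. The Slc25a38 start holds CCGGAAG with its first base at -46. Not shown are a start of Slc25a15, a lower carrier, with TAAACA at -250, and another Slc25a25 start with CCGGAAG at 7. The starts shown thus do not give motif counts by direction. Slc25a11 and Slc25a33, the carriers with the lowest p among those lower and higher, held none of the motifs in the window. Over the 45 member starts the cAMP response element was present in 2 (4.44%), beside 1.79% of 32851 promoters of the same length. CCGGAAG was present in 6 (13.3%), beside 8.86%, and TAAACA in 6 (13.3%), beside 13.4%. AGAACA was present in 4 (8.89%), beside 19.0%. TCAAGGTCA and GCGCATGCG, present in 0.423% and 1.75% of all promoters, were present in 0 member starts. A match is a string in the sequence and does not show binding.

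The ADP/ATP exchangers Slc25a5 and Slc25a4, each with 1 probe, had measured changes of opposite sign. The confidence interval of Slc25a4 includes both 0 and the change of Slc25a5, so a difference in direction is not established. Slc25a5, the widely expressed isoform, stood at 12.36 and 12.21 with SKRC39 and 12.89 and 13.68 with RXF393, a change of 1.00 ± 0.38 or 2-fold (adjusted p = 0.35, limma). Both RXF393 arrays were above both SKRC39 arrays. Slc25a4, the isoform known for heart and skeletal muscle, stood at 8.01 and 9.52 with SKRC39 and 7.57 and 8.63 with RXF393, and the groups overlapped. Its change was -0.67 ± 0.78, with a 95% confidence interval of -2.51 to 1.17, and leaving out SKRC39 replicate 2 turned its sign (0.09). Slc25a31, the isoform known from testis, was not detected on any array.

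Slc25a3, which imports the phosphate that ATP synthase uses, stood on its main probe at 11.66 and 12.63 with SKRC39 and 11.88 and 12.26 with RXF393. The groups overlapped, and the change was -0.07 ± 0.44 (95% confidence interval -1.11 to 0.97). Its other tested probe read 12.89 and 11.68 with SKRC39 and 12.10 and 9.36 with RXF393, a change of -1.55 ± 0.89 (adjusted p = 0.49, limma). On that probe RXF393 replicate 3 was the lowest of the 4 arrays while the main probe was not, and the array titled SKR_3 was also low, at 10.23.

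Among the ATP-Mg/phosphate carriers, which adjust the mitochondrial pool of adenine nucleotides, Slc25a25 was the one with separate groups on arrays that all detected it. It stood at 11.25 and 10.79 with SKRC39 and 12.71 and 12.21 with RXF393, a change of 1.44 ± 0.40 or 2.71-fold (95% confidence interval 0.48 to 2.39; adjusted p = 0.24, limma). Both RXF393 arrays were more than 1 log2 unit above the SKRC39 mean of 11.02. The arrays with conflicting labels both stood near the SKRC39 values, with 11.16 on the array titled RXF_1 and 11.36 on that titled SKR_3. Slc25a24 had a change of 0.47 with overlapping groups, and a second probe, detected on neither SKRC39 array, was at least 1.64-fold higher with RXF393 (adjusted p = 0.39, limma). Slc25a41, an ATP-Mg/phosphate carrier, was undetected with RXF393 and at least 1.29-fold lower there (adjusted p = 0.39, limma). Slc25a23, with a change of -0.48, was detected on 1 SKRC39 array and neither RXF393 array, so it lies at background.

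The malate-aspartate shuttle carriers detected on all arrays were lower on both RXF393 arrays, without passing the threshold. Slc25a11, which exchanges oxoglutarate for malate, stood at 13.91 and 13.88 with SKRC39 and 12.78 and 12.53 with RXF393. The lines were separate, with SDs of 0.03 and 0.17 around means of 13.90 and 12.65. The change was -1.24 ± 0.29, which is 2.37-fold lower (95% confidence interval -1.94 to -0.55; adjusted p = 0.18, limma). Another bright probe of Slc25a11 gave -1.14 ± 0.35, with 12.66 and 12.68 against 11.43 and 11.63, and the remaining, dim probe gave 0.31 ± 0.53. The mean over the gene's probes gave -0.69.

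Slc25a12, the calcium-activated aspartate-glutamate carrier that predominates in muscle, stood at 13.12 and 12.63 with SKRC39 and 12.25 and 10.26 with RXF393. RXF393 replicate 3 was about 2 log2 units below replicate 2, which itself lay below both SKRC39 arrays. The change was -1.62 ± 0.65 (3.07-fold lower; adjusted p = 0.37, limma), and a second probe gave -1.70 ± 0.63. Without RXF393 replicate 2 the change was -2.61 and passed the threshold (adjusted p = 0.031, limma), and leaving out each array in turn gave -2.61 to -0.62. Slc25a13, the aspartate-glutamate isoform known for liver, was not detected on any array. Slc25a22, a glutamate carrier, was detected on 1 array of each line and lies near background, with a change of 0.38 ± 0.46.

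**Figure D2:**
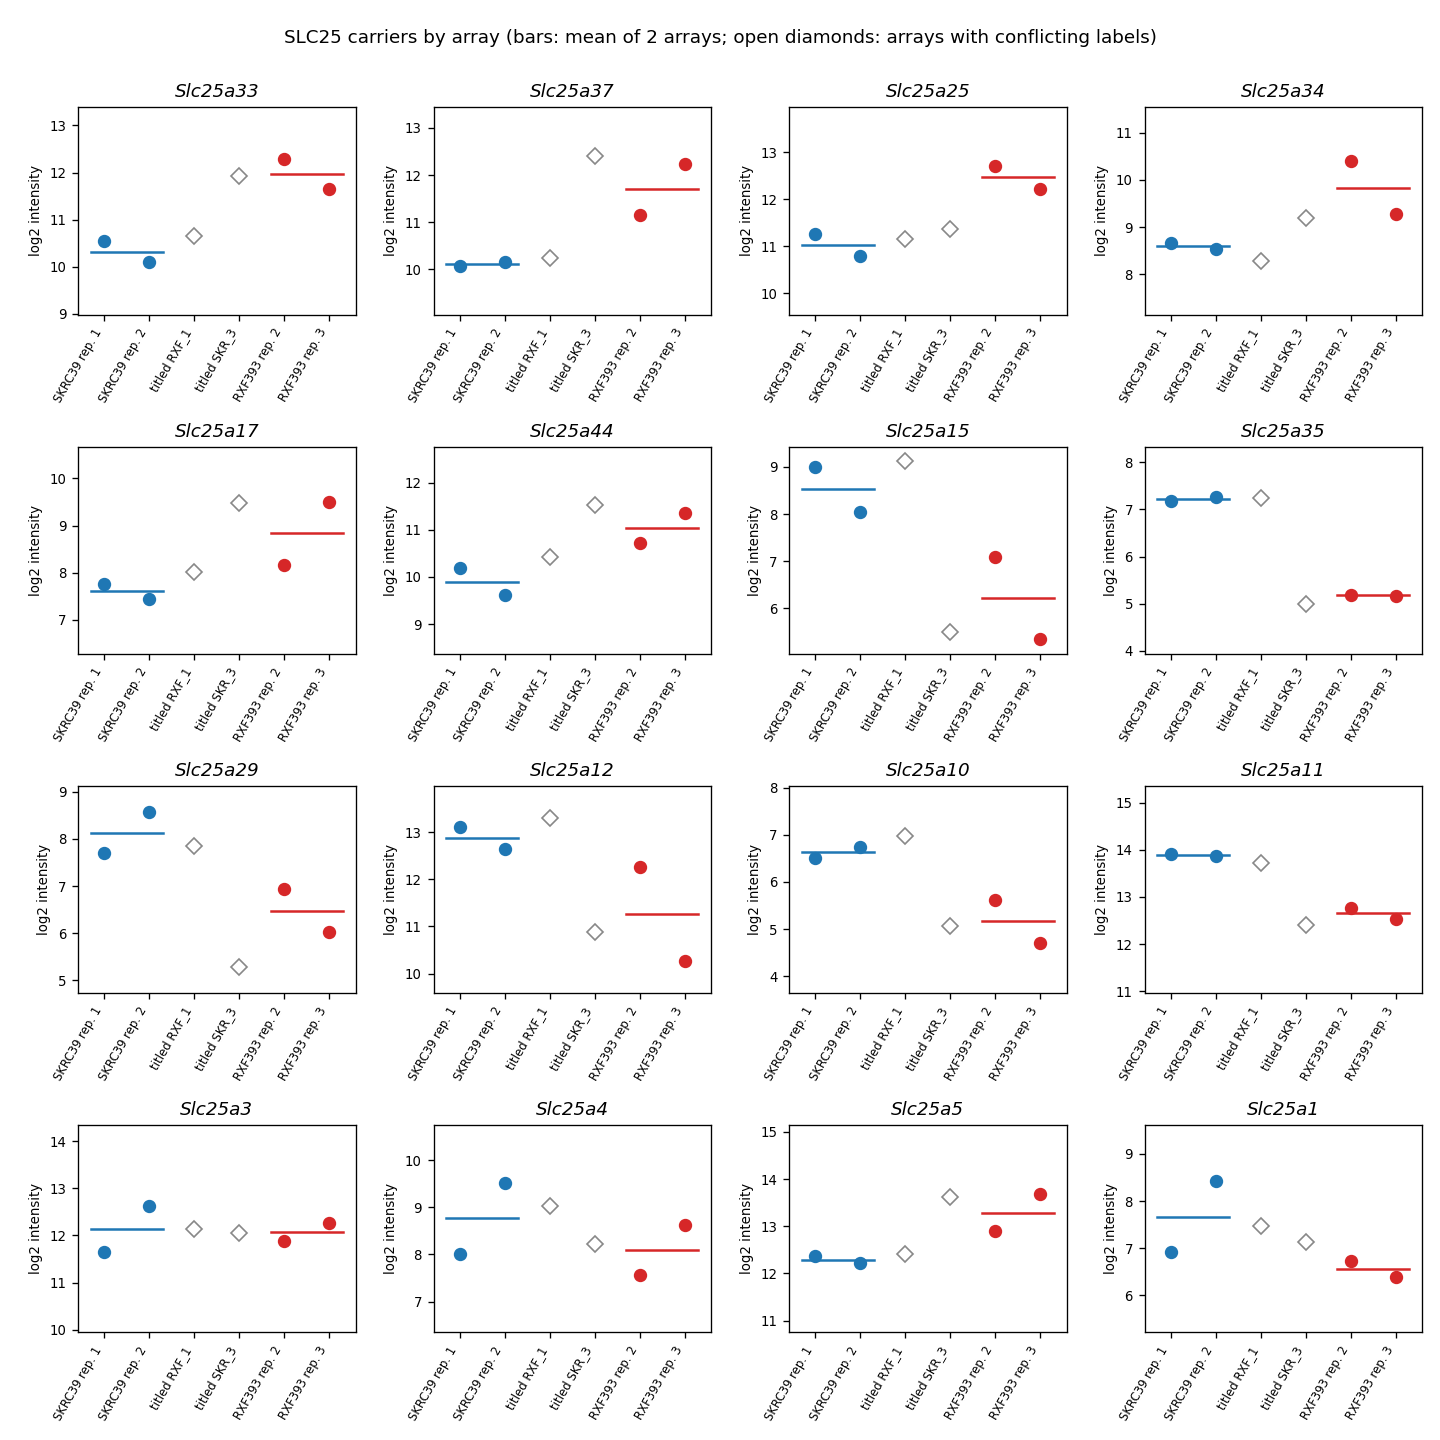
Each panel plots the log2 intensity (vertical axis, the same span in every panel) of 1 carrier on each of the 6 arrays (horizontal axis), with a bar at the mean of the 2 arrays of a line and open diamonds for the arrays with conflicting labels. Slc25a11 and Slc25a35 show close replicates and separate lines, Slc25a12 and Slc25a15 show RXF393 replicates that differ from each other, and Slc25a3 and Slc25a4 overlap.

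The citrate and dicarboxylate carriers export intermediates of the TCA cycle. Slc25a1, the citrate carrier, stood at 6.91 and 8.43 with SKRC39 and 6.73 and 6.40 with RXF393. The RXF393 arrays were lower, but the SKRC39 arrays differed from each other by more than the means of the lines, and the change was -1.10 ± 0.75 (adjusted p = 0.54, limma), or -0.66 on the authors' normalized values. Slc25a10, the dicarboxylate carrier, stood at 6.52 and 6.75 with SKRC39 and 5.61 and 4.71 with RXF393, was undetected with RXF393 and at least 1.84-fold lower there (adjusted p = 0.32, limma). Its change was -1.47, or -0.67 on the authors' normalized values and without background correction. The 1.84-fold bound thus holds only for the background correction used here. Slc25a21, the oxodicarboxylate carrier, was not detected on any array.

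Of the 4 amino acid carriers tested, 2 had a negative change (Slc25a15 and Slc25a29) and 2 a positive one (Slc25a38 and Slc25a44), and none passed the threshold. Slc25a2, an ornithine carrier, was not tested. Slc25a15, which imports ornithine for the urea cycle in liver, stood at 9.01 and 8.05 with SKRC39 and 7.08 and 5.35 with RXF393. Its change was -2.31 ± 0.83 (adjusted p = 0.33, limma). RXF393 replicate 3 did not detect it, so the difference is given as at least 4.15-fold on the background correction used here. The change was -1.35 on the authors' normalized values and without background correction, and -1.45 without RXF393 replicate 3. Slc25a29, which transports arginine and lysine, stood at 7.70 and 8.57 with SKRC39 and 6.93 and 6.02 with RXF393, with a change of -1.66 ± 0.72 (3.16-fold lower; adjusted p = 0.39, limma) and no overlap, or -0.97 on the authors' normalized values.

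Slc25a44, the mitochondrial carrier of branched-chain amino acids, stood at 10.18 and 9.61 with SKRC39 and 10.72 and 11.35 with RXF393. Both RXF393 arrays were higher, by 1.14 ± 0.50 or 2.2-fold (95% confidence interval -0.04 to 2.31; adjusted p = 0.40, limma). Slc25a38, which imports glycine for the first step of haem synthesis, stood on its main probe at 11.70 and 12.38 with SKRC39 and 12.71 and 13.41 with RXF393, a change of 1.02 ± 0.41 (adjusted p = 0.37, limma). A second probe gave 1.20 ± 0.59, with 8.21 and 9.11 against 9.74 and 9.99. The remaining probe gave -1.10 ± 1.39 and read 8.89 and 7.41 with SKRC39 and 9.25 and 4.85 with RXF393. On it RXF393 replicate 3 was undetected, as was the array titled SKR_3 at 4.76, while both other probes were detected there.

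**Figure D3:**
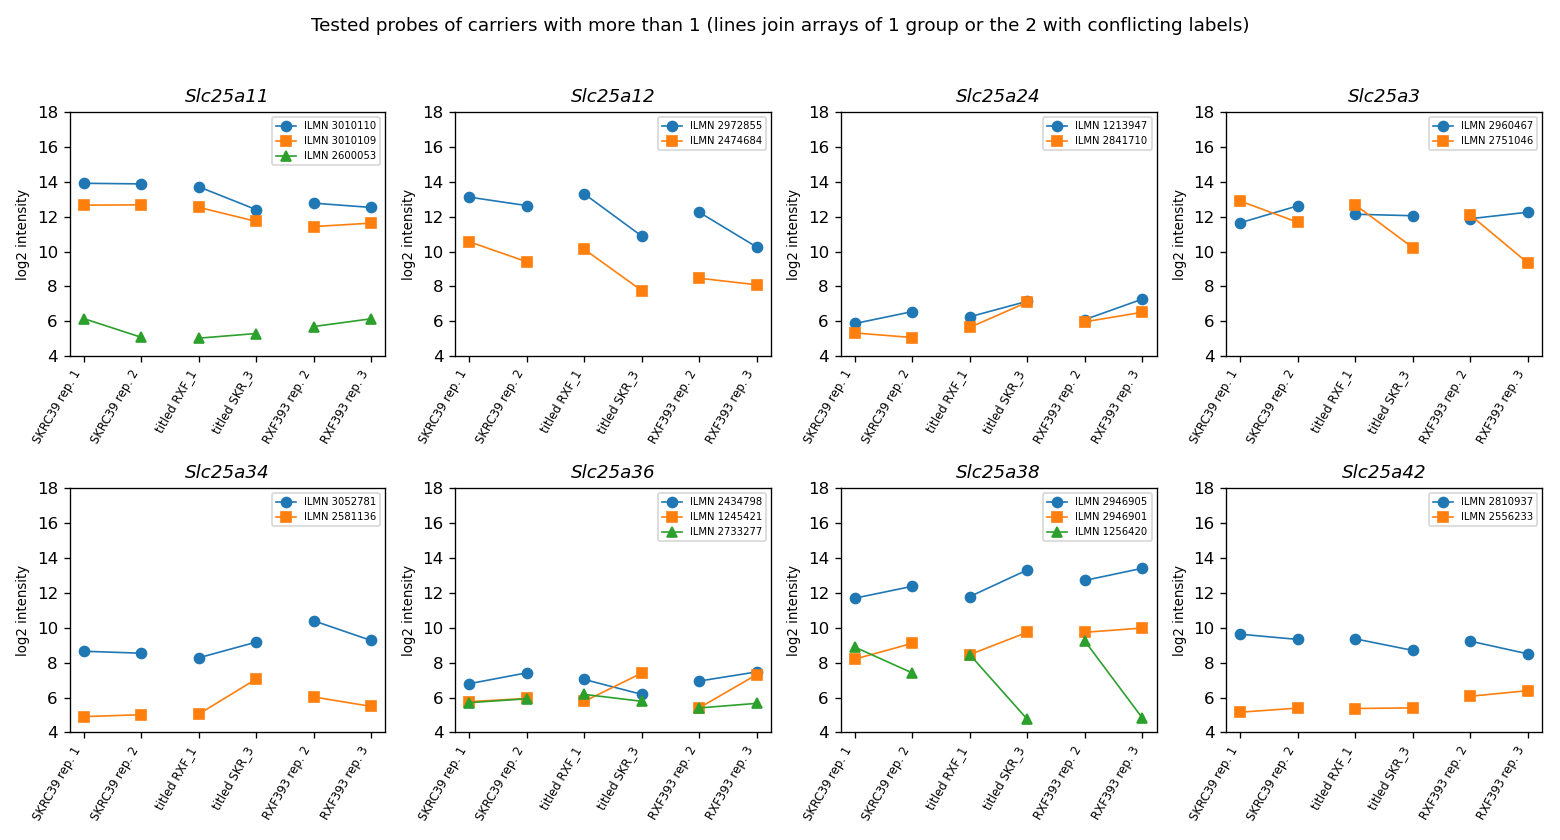
The log2 intensity (vertical axis) of every tested probe is plotted by array (horizontal axis) for the 8 carriers with more than 1 tested probe, with lines joining the arrays of 1 group or the pair with conflicting labels. Both Slc25a12 probes are lower with RXF393, whereas 1 probe each of Slc25a3 and Slc25a38 is low on RXF393 replicate 3 and on the array titled SKR_3 where the other probes of the gene are not.

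In all, 8 carriers had more than 1 tested probe. For 4 of them (Slc25a3, Slc25a12, Slc25a24 and Slc25a34) the probes had one sign, and for the other 4 (Slc25a11, Slc25a36, Slc25a38 and Slc25a42) they did not. For Slc25a11 and Slc25a42 the opposing probe was dim, at 5.09 to 6.16 and 5.16 to 6.40 on the 4 arrays.

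Both mitochondrial iron importers were higher on both RXF393 arrays, without passing the threshold. Slc25a37 (mitoferrin-1), the iron importer known above all from erythroid cells, stood at 10.08 and 10.17 with SKRC39 and 11.15 and 12.24 with RXF393, a change of 1.57 ± 0.50 or 2.98-fold (95% confidence interval 0.38 to 2.76; adjusted p = 0.29, limma). The SKRC39 arrays were alike and both RXF393 arrays lay above them by about 1 log2 unit or more. Slc25a28 (mitoferrin-2), the iron importer of other tissues, stood at 12.73 and 13.30 with SKRC39 and 13.56 and 13.88 with RXF393, a change of 0.71 ± 0.33 (adjusted p = 0.42, limma). Slc25a39, a glutathione carrier, had a change of -0.64, with 10.24 and 10.45 against 10.09 and 9.32. Of the 3 erythroid markers on the platform, 2 were higher on both RXF393 arrays. The haem synthesis gene Alas2 had a change of 2.61 and the red cell anion exchanger gene Slc4a1 one of 3.65, and neither passed (adjusted p = 0.14 and 0.11, limma). Hba-a1, which encodes haemoglobin alpha, had overlapping lines (change 0.71 ± 0.41) and came within 20% of the highest raw signal in 5 of the 6 arrays, so neither its own value nor the sum over the 3 markers (67390 and 26580 intensity units against 78860 and 74710) measures an erythroid level. Their part in the values of Slc25a37, Slc25a28 and Slc25a38 was not tested.

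Of the 7 tested carriers of nucleotides and cofactors, 5 had a positive change and 2 a negative one, and none passed the threshold. Slc25a33, which carries pyrimidine nucleotides used in mitochondrial DNA and RNA synthesis, stood at 10.55 and 10.10 with SKRC39 and 12.28 and 11.64 with RXF393. Both RXF393 arrays were above both SKRC39 arrays, by 1.64 ± 0.45 or 3.11-fold (95% confidence interval 0.58 to 2.70; adjusted p = 0.23, limma). Its relative Slc25a36 had a change of 0.10 ± 0.66 with overlapping groups. Slc25a17, a peroxisomal carrier of cofactors, stood at 7.77 and 7.45 with SKRC39 and 8.16 and 9.51 with RXF393, a change of 1.22 ± 0.72 (adjusted p = 0.50, limma). RXF393 replicate 3 was more than 1 log2 unit above replicate 2. The change was -0.61 for the coenzyme A carrier Slc25a42, -0.32 for the S-adenosylmethionine carrier Slc25a26 and 0.49 for Slc25a16. Slc25a32, detected on 1 array of each line, read 5.51 and 5.27 against 5.24 and 6.76 (measured change 0.61). These 4 changes had 95% confidence intervals that include 0.

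The remaining members have no well established substrate or lie near background. Slc25a35 stood at 7.17 and 7.27 with SKRC39 and 5.19 and 5.16 with RXF393, with SDs of 0.07 and 0.02. Neither RXF393 array detected it, and it was at least 2.76-fold lower (measured change -2.04 ± 0.51; adjusted p = 0.19, limma). That bound holds for the background correction used here, since the change was -0.91 on the authors' normalized values and without background correction, and -1.38 with an offset of 50. Slc25a34, its close relative, stood in the other direction at 8.65 and 8.54 with SKRC39 and 10.40 and 9.27 with RXF393, a change of 1.24 ± 0.61 (adjusted p = 0.44, limma). Slc25a46, an outer membrane protein that acts in mitochondrial dynamics, was bright on RXF393 replicate 3 (7.74) and not on replicate 2 (5.47), beside 5.63 and 5.56 with SKRC39. Of the members related to uncoupling proteins, Slc25a14, undetected on RXF393 replicate 3, was at least 1.20-fold lower (measured change -0.73), Slc25a27 had a change of -0.07, and Slc25a30 was not detected. The changes of Slc25a45, Slc25a47 and Slc25a53 lay between -0.18 and -0.16 with overlapping groups.

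Arrays of the same line were not uniform, for these genes as for all genes tested. In 17 of the 34 carriers the 2 RXF393 arrays differed from each other by more than the means of the lines did, and in 13 the 2 SKRC39 arrays did. The shares over all genes were not computed for these counts. The mean absolute difference over the 34 carriers was 0.59 between the SKRC39 arrays and 0.82 between the RXF393 arrays, and 0.69 to 1.22 for pairs across the lines. Over all genes tested it was 0.61, 0.82 and 0.71 to 1.23, in the same order. Leaving out 1 array in turn gave changes of 0.55 to 1.90 for Slc25a17, 0.67 to 1.80 for Slc25a34, -1.86 to -0.35 for Slc25a1 and -3.18 to -1.45 for Slc25a15, as well as 1.03 to 2.11 for Slc25a37 and 0.60 to 1.39 for Slc25a5. The range was narrower for Slc25a11 (-1.37 to -1.12) and Slc25a35 (-2.10 to -1.99). The array titled RXF_1 differed by 0.26 and 0.51 from the SKRC39 arrays and by 0.76 and 1.17 from the RXF393 arrays. The array titled SKR_3 differed by 0.79 and 0.29 from the RXF393 arrays and by 1.16 and 1.28 from the SKRC39 arrays. For 29 of the 34 carriers the array titled RXF_1 was nearer the SKRC39 mean, and for 28 the array titled SKR_3 was nearer the RXF393 mean. Shares over all genes were not computed here either. Slc25a11, for example, stood at 13.71 on the array titled RXF_1 and 12.40 on that titled SKR_3, and Slc25a35 at 7.24 on the array titled RXF_1 and 5.00 on that titled SKR_3. These positions were not used to place either array in a group.

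**Figure D4:**
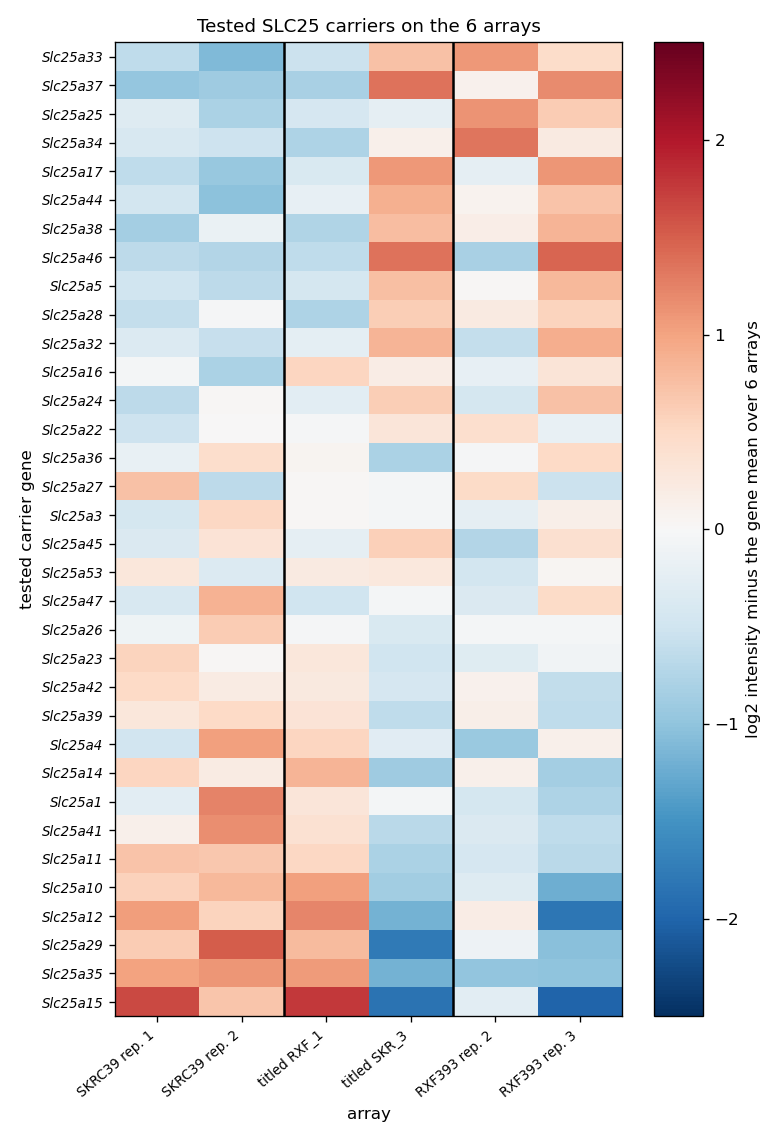
Colour gives the log2 intensity minus the gene's mean over the 6 arrays for the 34 tested carriers (rows, ordered by change) on each array (columns, with the arrays of conflicting labels in the middle). The array titled SKR_3 resembles RXF393 replicate 3, RXF393 replicate 2 is paler for many carriers, and the array titled RXF_1 resembles SKRC39 replicate 1.

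Grouping all 6 arrays by their characteristics, which places the array titled RXF_1 with SKRC39 and that titled SKR_3 with RXF393, put 12 of the 34 carriers past the threshold. The 5 higher ones were Slc25a5, Slc25a28, Slc25a33, Slc25a37 and Slc25a38, where 10.5% of all genes were called higher. The 7 lower ones were Slc25a10, Slc25a11, Slc25a12, Slc25a15, Slc25a29, Slc25a35 and Slc25a41, where 7.82% were called lower. Of these, Slc25a10, Slc25a35 and Slc25a41 were detected only on the arrays titled SKR_1, RXF_1 and SKR_2. Those are the SKRC39 arrays of this grouping, so these carriers entered the test through the group where they were bright. The count of lower carriers thus does not describe all members. Grouping by title put 0 carriers and 0 genes past it, with 0 carriers and 19 genes at an unadjusted p below 0.05 in limma, the tool used throughout. Which reading is right cannot be settled from the labels.

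Other mitochondrial transport genes gave no member past the threshold either. Of family members under other symbols, Ucp3, the muscle uncoupling protein, was detected on 1 array of each line and stood at 7.68 and 5.27 against 7.29 and 4.89 (change -0.38). The changes of Mtch1 and Mtch2 were 0.20 and 0.17, while Ucp1 was not detected. Among 3 outer membrane channels, which pass metabolites to the carriers, Vdac3 stood at 13.59 and 10.07 with SKRC39 and 11.34 and 7.04 with RXF393. Arrays within each line differed by more than 3 log2 units, and its change of -2.64 ± 1.55 did not pass (adjusted p = 0.50, limma). Vdac2 had a change of 0.11, and Vdac1, near the top of the signal range, one of -0.12.

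Of 13 tested genes of the TIM22 import route and the outer membrane complex that feeds it, 9 had a positive change and 4 a negative one. None passed the threshold. Their median was 0.47, beside 0.07 over all genes tested, of which 53.6% had a positive change. The change was 1.75 ± 0.67 for Tomm22, a receptor subunit of the outer membrane translocase, which read 5.53 and 6.21 against 7.14 and 8.10. It was 1.64 ± 0.45 for Timm10, a chaperone that escorts carriers across the intermembrane space. Timm13, a chaperone of the same kind, had a change of 1.01 with overlapping groups. Timm10 read 9.69 and 10.03 against 11.29 and 11.70, without overlap. Of 13 tested inner membrane transporters outside the family, 5 had a positive and 8 a negative change, with a median of -0.03. The change was -1.50 for the proton-coupled ion exchanger gene Letm1, 1.09 for the calcium uniporter gene Mcu and 1.05 for the sodium-calcium exchanger gene Slc8b1, none past the threshold.

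Marker levels of other cells are given for the same arrays. The 9 neutrophil markers on the platform, of which Ngp, Camp, Elane and Mpo were undetected throughout, summed to 301.5 and 663.3 intensity units on the SKRC39 arrays and to 14350 and 10730 on the RXF393 arrays. Lcn2, a secreted iron-scavenging protein of neutrophils that other cells also make, rose past the threshold (change 6.69 ± 0.66; adjusted p = 0.03, limma). It read 5.93 and 6.37 with SKRC39 and 13.58 and 12.11 with RXF393. Lcn2 was the brightest of the 9 on both RXF393 arrays, so the sum does not measure a neutrophil level. The changes of S100a8, S100a9, Retnlg and Chil3 were 3.47, 2.68, 3.18 and 2.64, none past the threshold. The 8 fibroblast markers summed to 30000 and 35510 against 20460 and 25560, with a negative change in all 8, and the 7 macrophage markers to 2455 and 3517 against 1624 and 1843. The 11 muscle fibre markers summed to 486500 and 493200 against 437800 and 420400, with Acta1, Ckm, Tnni2, Tnnt3, Actn3 and Mylpf near the top of the signal range in 3 to 6 of the 6 arrays. Of these 11, 8 had a negative change and 3 a positive one, none past the threshold. The slow troponin genes Tnnt1 and Tnni1 changed by -1.40 and -1.16 without overlap, and the slow myosin gene Myh7 by 0.04 with overlap. Tnnt1 read 15.14 and 14.99 with SKRC39 and 12.94 and 14.38 with RXF393, and Tnni1 9.92 and 9.97 against 8.07 and 9.49. Both troponin genes were lowest on the array titled RXF_1, at 8.96 and 5.38, where Tnni1 was undetected. They thus varied strongly between single arrays. Adipocyte and endothelial marker sums overlapped between the lines, and of 4 brown adipocyte markers Ucp1, Elovl3 and Dio2 were undetected. The part of these cells in the carriers' values was not tested.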

How the data were processed

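Both deposited tables were used. Per the file headers, one gives raw bead intensity for every array, with the detection p-value of each probe. The other, used as an alternative, gives intensity that the authors quantile-normalized with Genome Studio (module version 1.9.0), per the series' design text. Raw values went through normexp, quantile normalization over 6 arrays (offset 16) and log2 with neqc (limma 3.58.1, R 4.3.3). The offset understates changes of dim probes. Of 45281 probes, the 17738 that 2 or more arrays detected (detection p below 0.05) were tested with lmFit and eBayes with an intensity trend. Platform annotation gave 1 symbol for 34885 probes, several for 18 and none for 10378. All 73 member probes matched RefSeq (GRCm38.p6) by gene ID. The build behind the array design is not given in the sources used here.

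Where 1 or both arrays of a line did not detect a probe, the fold is a bound against the lowest detected signal, or the probe's own where higher. Such bounds hold for the background correction used here. Given in full were carriers past the threshold, the 6 highest and 6 lowest changes without overlap, and a fixed set (Slc25a1, a3, a4, a5, a11, a12, a13, a25, a33 and a37); of related lists, up to 3 with the largest change. Members and lists were chosen with earlier results of these data known. The fit was tested on simulated data. The number of arrays limits precision.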

Additional observations from a re-analysis of the deposited data

How the results depend on the processing

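In the comparison of 4 arrays, 36 genes and 0 carriers passed. In limma the count of genes was 0 with median scaling (1533 at an unadjusted p below 0.05), 0 without the intensity trend (1350 unadjusted), 22 with the mean over a gene's probes and 147 among probes detected on all 6 arrays, with 0 carriers in each. With all 6 arrays it was 1868 by characteristics (12 carriers) and 0 by title (19 unadjusted). Leaving out 1 array gave 20 to 450 genes and 0 to 1 carriers: 65 without SKRC39 replicate 1, 134 without SKRC39 replicate 2, 450 without RXF393 replicate 2 (Slc25a12 the carrier) and 20 without RXF393 replicate 3. These fits leave 1 array in a line, assumed to vary like the others.

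The description numbers of the 4 arrays form 2 pairs. With 2 arrays per line, deviations from the line mean mirror each other. Both pairs therefore give the same correlation, 0.514, and the opposite pairing gives its negative. This value cannot show a shared source, and nothing in the labels says that a number marks one. With the description number as replicate block 356 genes and 0 carriers passed. By characteristics with the block the counts were 3113 and 15, and by title with the title number as block 0 and 0 (143 genes and 0 carriers unadjusted).

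The carriers' median was -0.37 with median scaling and lay between -0.24 and 0.16 when 1 array was left out. Of 268 values of the 16 carriers given in full under the alternatives, 242 kept sign and side of the threshold, 22 passed and 4 changed sign: Slc25a3 to 0.19 (median scaling), 0.41 (without SKRC39 replicate 2) and 0.12 (without RXF393 replicate 2), and Slc25a4 to 0.09 (without SKRC39 replicate 2). Leaving out 1 array gave -0.56 to 0.41 for Slc25a3 and -1.43 to 0.09 for Slc25a4. On the authors' normalized values, as without background correction, dim carriers kept their sign with changes smaller by over 1.5 times: Slc25a35 -0.91 for -2.04, Slc25a15 -1.35 for -2.31, Slc25a10 -0.67 for -1.47, Slc25a29 -0.97 for -1.66 and Slc25a1 -0.66 for -1.10. The causes were not tested. Carriers near background are limited by signal.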
